A study of Mus musculus with 30 samples.

Results

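Antigen presentation by MHC class I molecules was examined through 10 genes chosen by name, all 10 of which are among the 11137 genes of the deposited table. They are H2-K1 and H2-D1, which code for the classical heavy chains, and B2m, the light chain they share. Tap1, Tap2 and Tapbp code for the peptide transporter and for tapasin. Psmb8 and Psmb9 code for catalytic subunits of the immunoproteasome, and Psme1 and Psme2 for the PA28 activator. Transcripts were counted by 3′ mRNA sequencing in 30 libraries of luminal or basal mammary cells, sorted by FACS from 17 female mice of mixed background. Control mice (K8rta:TETO CRE:mTmG, called K8imTmG) carried a doxycycline-dependent Cre driven from the Krt8 promoter and a membrane tomato/GFP reporter. K8iΔRank mice (K8rta:TETO CRE:RANK fl/fl:mTmG) also carried floxed Rank, so that Rank was targeted in luminal cells, whereas their basal cells kept it. Mice of both genotypes were given doxycycline (1 mg per ml of drinking water), by the labels between the ages of 3 and 8 weeks. Parous glands were taken 30 days after involution began, and virgin mice were matched for age. By the paper's methods, pups of control mothers were removed on lactation day 10. K8iΔRank mothers failed to lactate at lactation day 1, and their 30 days stood in for a normal involution. Parous K8imTmG and K8iΔRank mice thus also differed in lactation, which cannot be told apart from genotype. Luminal libraries came from 3 virgin K8imTmG, 3 virgin K8iΔRank, 5 parous K8imTmG and 4 parous K8iΔRank mice. Basal libraries came from 3 virgin K8imTmG, 4 virgin K8iΔRank, 4 parous K8imTmG and 4 parous K8iΔRank mice, and 13 mice gave both lineages.

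Proteasomes cut cytosolic proteins into peptides, and TAP carries the peptides into the endoplasmic reticulum, where tapasin helps to load them onto the heavy chain and B2m for display to CD8+ T cells. In the immunoproteasome Psmb8, Psmb9 and Psmb10 take the places of the constitutive subunits Psmb5, Psmb6 and Psmb7, and PA28 caps the core particle. Interferon gamma is the best known inducer of these genes, and epithelial cells, mammary ones included, express them at a basal level. H2-K1 and H2-D1 are highly polymorphic, and the alleles carried by these mice are not given in the sources used here.

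In GRCm39 with GENCODE vM39, 7 of the 10 genes lie on chromosome 17. Psmb9 (34400960 to 34406738, minus strand), Tap1 (34405996 to 34416199, plus), Psmb8 (34416690 to 34420428, plus) and Tap2 (34422501 to 34435829, plus) form a cluster. Tap1 and Psmb9 are arranged head to head and overlap by 743 bases at their 5′ ends, 490 bases separate Tap1 from Psmb8, and 2072 bases separate Psmb8 from Tap2. Tapbp (34134873 to 34148267, plus), H2-K1 (34214987 to 34219321, minus) and H2-D1 (35481691 to 35486475, plus) are on the same chromosome. B2m is on chromosome 2 (121977957 to 121983594, plus). Psme1 (55815190 to 55822034, plus) and Psme2 (55824895 to 55829173, minus) face each other on chromosome 14 with 2860 bases between their 3′ ends. Promoter windows of RefSeq, which reach from 250 bases before to 50 bases after a start, were given for 9 of the 10 genes. They were searched on both strands for the core of the interferon-stimulated response element (GAAA repeated after any 2 bases), the gamma-activated site (TTCNNNGAA) and the NF-kB consensus. These elements are shown because class I genes are the textbook example of promoters that carry them. The matches follow 5′ to 3′ on the strand of the gene, with the motif in capitals.

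H2-K1, NF-kB consensus, chr17:34219415-34219440: ccagggctGGGGATTCCCcatctcca

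H2-D1, NF-kB consensus, chr17:35481891-35481916: ccagggctGGGGATTCCCcatctcct

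B2m, NF-kB consensus, chr2:121978034-121978059: tgaaaatgGGAAAGTCCCtttgtaac

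B2m, response element core, chr2:121978021-121978046: aagaacatGAAACTGAAAatgggaaa

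Psme1, response element core, chr14:55815952-55815977: agctgtgcTTTCGCTTTCccttcccg

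Psmb8, gamma-activated site, chr17:34417064-34417088: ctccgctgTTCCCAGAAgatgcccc

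The motif began at position -111 of H2-K1 and -171 of H2-D1, counted from the RefSeq start, and 25 of the 26 bases around it are identical in the 2 genes. In both a second match overlapped it, shifted by 1 base. In B2m the response element core began at -139 and the NF-kB match, which lies on the opposite strand, at -126, without overlap. The Psme1 match is also on the opposite strand and begins 10 bases after the start, and the Psmb8 match begins at -97. The NF-kB consensus was present in 5.14% of the 27025 genes with windows, the response element core in 3.99% and the gamma-activated site in 9.55%. No match to the 3 motifs was found in the windows of Tap1, Tapbp, Psmb9 and Psme2, which says only that these letters are not in those windows. The windows carry coordinates of GRCm38.p6, and the positions above are those of the same bases in GRCm39.

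The deposited values are normalized counts, gene counts divided by size factors, and whole reads could be recovered from them in every library. Depth ranged from 340445 to 3130420 reads, so that 1 read was worth 0.381 to 5.43 normalized counts. Of the 86-base windows in the last 500 bases of each transcript, 171 of 415 windows of Psme2 (41.2%) also occur in its copy Psme2b, and none of the other 9 members' windows occur in another gene. Libraries fell into 2 sets that the labels do not name, by Clec2d, which codes for a C-type lectin-like protein. It was at 0.641 to 8.68 normalized counts in 16 Clec2d-low libraries and at 65.6 to 199 in 14 Clec2d-high ones, with median depths of 2478110 and 878946 reads. All virgin luminal K8imTmG, virgin basal K8iΔRank and parous luminal K8iΔRank libraries were Clec2d-low, and all virgin luminal K8iΔRank, virgin basal K8imTmG and parous basal K8imTmG libraries were Clec2d-high. The parous luminal K8imTmG libraries held 3 low and 2 high ones, and the parous basal K8iΔRank libraries 2 of each. Tnfrsf11a, the gene of Rank, lay between 9.57 and 18.6 normalized counts in virgin luminal K8imTmG and between 11.5 and 23.8 in virgin luminal K8iΔRank libraries. In parous luminal libraries it lay between 12.8 and 64.9 in K8imTmG and between 27.0 and 41.1 in K8iΔRank. Reads from the 3′ end cannot tell a deleted transcript from an intact one, and the genotype is that of the labels. The summed level of 7 basal markers was 38.8 to 223 normalized counts in luminal and 7415 to 11801 in basal libraries, and that of 5 luminal markers 4039 to 11013 in luminal and 721 to 1903 in basal libraries. Of 20 leukocyte markers 4 could be summed (Lyz2, Cd68, Ikzf1 and Lcp1), and the others, Ptprc, Cd3e and Cd79a among them, were absent from the deposited table. That table holds only genes that passed the authors' low-count filter, so the levels of the absent markers are not known here.

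All 10 genes were detected in both lineages. Levels between genes were not compared. H2-K1 mean levels ran from 194 ± 105 normalized counts (SD, n = 4) in virgin basal K8iΔRank to 635 ± 29.3 (SD, n = 3) in virgin luminal K8iΔRank cells. H2-D1 ran from 415 ± 277 to 823 ± 348 between the same groups, and B2m from 1028 ± 328 to 2986 ± 813. The 3 chains of the class I molecule thus had their lowest mean in basal and their highest in luminal cells of virgin K8iΔRank mice. Tap1 was highest in virgin luminal K8imTmG (153 ± 69.1, SD, n = 3) and lowest in parous basal K8imTmG cells (40.5 ± 17.0, SD, n = 4). Tapbp had the same highest and lowest groups, at 439 ± 199 and 184 ± 27.0 normalized counts. Tap2 was scarce, at 0 to 214 normalized counts with fewer than 3 reads in 6 libraries, and its values are the least precise of the 10. Psmb8 was highest in virgin luminal K8imTmG (165 ± 38.3, SD, n = 3) and lowest in virgin basal K8imTmG cells (34.5 ± 36.2, SD, n = 3). Psmb9 ran from 12.4 ± 10.8 (SD, n = 4) in virgin basal K8iΔRank to 48.0 ± 26.6 (SD, n = 3) in virgin luminal K8iΔRank cells, as did Psme2, from 27.7 ± 21.7 to 72.1 ± 50.02. Psme1 ran from 107 ± 25 (SD, n = 3) in virgin basal K8imTmG to 396 ± 45.7 (SD, n = 3) in virgin luminal K8imTmG cells. When the 8 groups of a gene were put in order of their means, neighbours in the order overlapped in their libraries, with 3 exceptions among the 7 neighbouring pairs of each gene. Psme1 in virgin luminal K8imTmG stood above the next group without overlap, and Tap2 had 2 such steps.

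**Figure D1:**
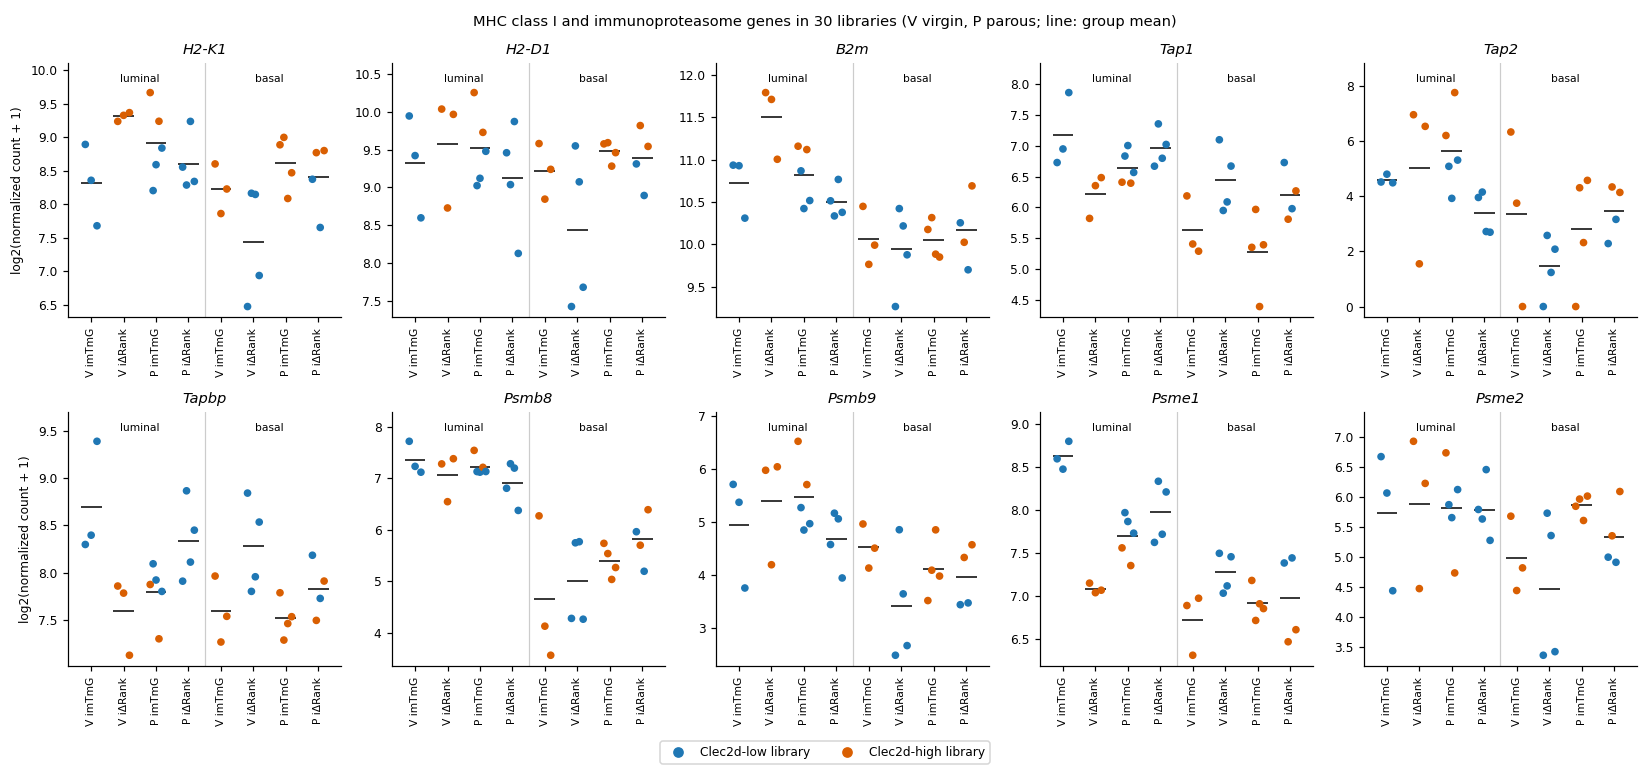
Log2(normalized count + 1) of the 10 genes in each of the 30 libraries, by group. Points are libraries, coloured by Clec2d side, lines are group means, and in luminal cells Psme1 reaches 356 to 446 normalized counts in the 3 virgin K8imTmG libraries and 131 to 141 in the 3 virgin K8iΔRank libraries.

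The first comparison asked whether the machinery differed between luminal and basal cells. Luminal cells had more of 7 of the 10 transcripts, with none higher in basal cells, in a limma fit over the 8 groups and 30 libraries. In that fit 55.7% of all genes were called in either direction and 28.7% were called higher in luminal cells. The median difference of the 10 genes was 0.85 on the log2(normalized count + 1) scale, against 0.04 over all 11133 genes tested, and all 10 differences were above 0. The largest log2 difference was that of Psmb8, at 1.92 (standard error 0.21, adjusted p = 8.11e-09). Its normalized counts were 81.9, 145 and 209 (lowest, median and highest) in the 15 luminal libraries and 10.9, 45.5 and 82.8 in the 15 basal libraries. The 2 lineages overlapped in Psmb8 only between 81.9 and 82.8 normalized counts. Psmb9, its partner in the immunoproteasome, was higher in luminal cells by 1.12 (standard error 0.27, adjusted p = 0.000767). B2m was higher by 0.83 (standard error 0.14, adjusted p = 5.98e-06), with 1268, 1868 and 3548 normalized counts in luminal and 614, 1040 and 1652 in basal libraries. H2-K1 was higher by 0.62 (standard error 0.19, adjusted p = 0.0062), whereas H2-D1 differed by 0.26 (95% interval -0.18 to 0.69, adjusted p = 0.324). Whether the lineage difference itself differed between these genes was not tested. Of the transporter genes Tap1 was higher in luminal cells by 0.87 (standard error 0.16, adjusted p = 4.74e-05) and Tap2 by 1.88 (standard error 0.59, adjusted p = 0.00788). Tapbp did not pass the test, with a difference of 0.30 (95% interval 0.02 to 0.58, adjusted p = 0.0678). Among the PA28 genes Psme1 was higher by 0.87 (standard error 0.11, adjusted p = 1.46e-07), and Psme2 differed by 0.64 (95% interval 0.06 to 1.23, adjusted p = 0.055). In these bulk samples fewer expressing cells and less RNA per cell cannot be told apart.

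With the mouse as a fixed term, which rests on the 13 mice with both lineages, 5 of the 7 calls held. The 2 that did not were H2-K1, at 0.47 (adjusted p = 0.114), and Tap2, at 1.42 (adjusted p = 0.0627). In the luminal and basal cells of a single mouse, Psmb8 and B2m were higher in the luminal library in 12 of 13 mice and Psmb9 and Psme1 in 11. The count was 10 for Tap1, 9 for Tapbp, 8 for H2-K1, Tap2 and Psme2, and 7 for H2-D1. Only 3 mice had both libraries on one Clec2d side, and in all 3 of them Psmb8, Psmb9, B2m, H2-K1, H2-D1 and Psme1 were higher in the luminal library. With the Clec2d side as a covariate, 7 genes were called and H2-K1 differed by 0.85 (adjusted p = 0.000292). The summed level of the 4 leukocyte markers was 86.8 to 260.4 normalized counts in luminal and 28.5 to 124 in basal libraries. The luminal sum was led by Lcp1, at 41.9 to 217, and Ikzf1 also had a higher median in luminal libraries. Lyz2 and Cd68 went the other way. Their medians were 9.612 and 3.902 normalized counts in luminal and 18.49 and 21.48 in basal libraries. The part of these 4 markers in the lineage difference was not tested. The summed levels of 5 endothelial and 6 fibroblast markers were 5.04 to 39.7 and 98.4 to 957 normalized counts in luminal libraries, and 47.8 to 814 and 550.2 to 1003 in basal libraries. In luminal libraries Dcn was at 33.5 to 938, and each of the other fibroblast markers at no more than 65.6.

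**Figure D2:**
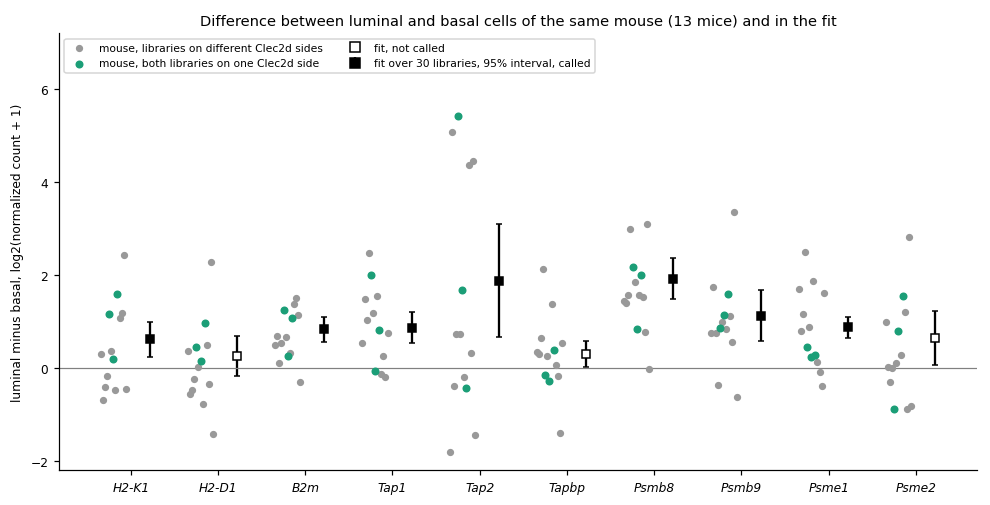
Luminal minus basal difference of each gene on the log2(normalized count + 1) scale. Circles are the 13 mice with both lineages, green where both libraries were on one Clec2d side, and squares are the fit over 30 libraries with 95% intervals, filled where called, and Psmb8 lies above 0 in 12 of 13 mice, and its fitted difference of 1.92 is the largest.

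Taken condition by condition, 4 members were called higher in luminal cells of virgin K8imTmG mice, 6 in virgin K8iΔRank, 6 in parous K8imTmG and 2 in parous K8iΔRank mice, and no member was called lower. Over all genes 45.1%, 39%, 36.2% and 29.7% were called in either direction in these 4 comparisons. Called higher in luminal cells were 2551, 2116, 1993 and 1514 of the 11133 genes tested. Psmb8 was called in all 4, with differences of 2.70, 2.05, 1.83 and 1.10 in that order. The first of these rests on 3 virgin basal K8imTmG libraries with 53, 4 and 2 Psmb8 reads (mice 531, 538 and 568), so its size is imprecise. Whether the 4 differences differ from each other was not tested. The other members changed their place between conditions. In virgin K8imTmG mice Psme1 (1.90, adjusted p = 6.69e-07), Tap1 (1.56, adjusted p = 0.000942) and Tapbp (1.10, adjusted p = 0.00433) were higher in luminal cells, while H2-K1 differed by 0.08 (95% interval -0.76 to 0.92). In virgin K8iΔRank mice H2-K1 (1.88, adjusted p = 0.000275), B2m (1.56, adjusted p = 5.49e-05), H2-D1, Tap2 and Psmb9 were higher. In those mice Psme1 differed by -0.19 (95% interval -0.67 to 0.29), Tap1 by -0.23 (95% interval -0.92 to 0.46) and Tapbp by -0.69 (adjusted p = 0.0539). Luminal and basal libraries of the virgin mice were on opposite Clec2d sides within each genotype, and the sides were exchanged between genotypes, so in virgin mice the side cannot be told apart from the way the lineage difference depended on genotype. The Psmb8 difference was above 0 in both genotypes, with the sides exchanged.

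The immunosubunits were also set against the constitutive subunits they replace, as the log2 ratio of normalized counts + 1 within a library. A ratio shows unequal counts and not the makeup of the particle. The Psmb8 to Psmb5 ratio lay between -1.51 and 0.27 in luminal libraries (median -0.72) and between -4.06 and -0.58 in basal libraries (median -1.59), and it was higher in the luminal library in 11 of 13 mice. The Psmb9 to Psmb6 ratio had medians of -3.08 and -4.22 and was higher in the luminal library in 10 of 13 mice. The Psmb10 to Psmb7 ratio was higher there in 9 of 13 mice, with medians of -1.01 and -1.17. The Psme2 to Psme1 ratio went the other way, being higher in the luminal library in 4 of 13 mice, with medians of -2.10 in luminal and -1.34 in basal libraries. The H2-K1 to H2-D1 ratio was higher in the luminal library in 11 of 13 mice (medians -0.64 and -0.98), and the Tap1 to Psmb9 ratio, of the gene pair that shares a promoter region, in 6 of 13 (medians 1.60 and 1.697). Psmb5 was itself higher in luminal cells by 0.58 (standard error 0.15, adjusted p = 0.00147) and Psmb10 by 0.43 (standard error 0.17, adjusted p = 0.0307). Psmb6 differed by 0.22 (adjusted p = 0.0962) and Psmb7 by 0.15 (adjusted p = 0.557).

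**Figure D3:**
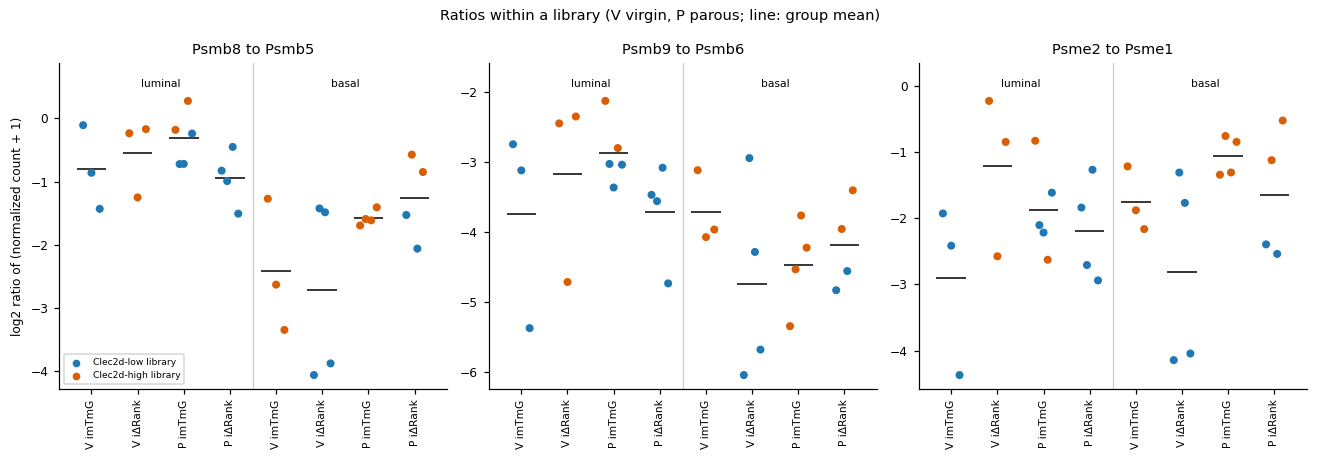
Log2 ratio of (normalized count + 1) of Psmb8 to Psmb5, Psmb9 to Psmb6 and Psme2 to Psme1 within each library, by group. Points are libraries coloured by Clec2d side, lines are group means, and Psmb8 to Psmb5 has a median of -0.72 in luminal and -1.59 in basal libraries.

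Other genes of the pathway were counted in the same lineage fit, in which 55.7% of all genes were called. The share called was 77.8% of the class I relatives, 50% of the loading and trimming genes, 56.2% of the regulators and 36.4% of the other core subunits, so that the last 3 lists lay near or below the background. Of 19 listed class I and class I-like heavy chain genes 9 were measured, and 6 were higher in luminal and 1 in basal cells. H2-Q2 (2.09, adjusted p = 1.18e-07), H2-Q7 (1.68, adjusted p = 2.28e-06) and H2-K2 (0.97, adjusted p = 4.05e-05) were higher in luminal cells, as was Mr1, which presents vitamin B metabolites (0.87, adjusted p = 0.000397). H2-M3, which presents formylated peptides, was the 1 that was lower (-0.73, adjusted p = 0.0328), and is named after its value was seen. H2-K2 and the H2-Q genes are close relatives of the classical genes, and their counts are uncertain where reads could be split between copies. Of 12 loading and trimming genes 4 were higher and 2 lower. The cytosolic peptidase genes Lap3 (0.99, adjusted p = 1.48e-06) and Tpp2 (0.66, adjusted p = 0.00632) were among the higher ones. Tapbpl, a tapasin-related peptide editor (-0.75, adjusted p = 0.000849), and Blmh, another cytosolic peptidase (-0.41, adjusted p = 0.00506), were lower. Of 11 other core subunits 4 were higher and none lower, Psma7 (0.43), Psma6 (0.50), Psma4 (0.31) and Psmb3 (0.34). The cap genes Psme4 (0.81, adjusted p = 9.68e-05) and Psme3 (0.43, adjusted p = 0.00707) were higher too. Among 16 measured regulators, 6 were higher and 3 lower in luminal cells. Irf1, a transcription factor that activates class I and immunosubunit genes, was lower in luminal cells by 1.30 on the log2 scale, a difference of -1.30 (standard error 0.21, adjusted p = 6.22e-06). Its group means were 181 to 294 normalized counts in luminal and 401 to 663 in basal cells. The kinase gene Jak2 (0.89, adjusted p = 2.22e-06) and Irf2 (0.75, adjusted p = 7.25e-05) were higher in luminal cells, and Rfxap, a subunit of the RFX complex of MHC promoters, was lower (-0.88, adjusted p = 2.15e-05). Nlrc5, the class I transactivator, was absent from the deposited table.

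The next comparison asked what luminal deletion of Rank did in virgin luminal cells. There 1 of the 10 genes was called lower in K8iΔRank cells and none higher, while 0.984% of 10066 genes were called. The gene was Psme1, the alpha subunit of PA28. Its normalized counts were 387, 356 and 446 in the 3 K8imTmG libraries and 141, 131 and 133 in the 3 K8iΔRank libraries. The groups did not overlap, and Psme1 fell by 1.54 on the log2 scale, a difference of -1.54 (standard error 0.22, limma adjusted p = 0.0253). Over the alternatives with all libraries its adjusted p lay between 1.84e-05 and 0.0256. Leaving out any 1 of 4 mice (533, 821, 822 or 825) raised it to between 0.0678 and 0.12, with differences of -1.52 to -1.61. The other members moved in both directions without passing the test. H2-K1 was at 475, 327 and 204 normalized counts in K8imTmG and 603, 642 and 661 in K8iΔRank libraries, a difference of 1.00 (95% interval 0.32 to 1.68, adjusted p = 0.106). B2m was at 1958, 1949 and 1268 in K8imTmG and 3548, 3355 and 2054 in K8iΔRank libraries, a difference of 0.78 (adjusted p = 0.178). Both genes were higher in every K8iΔRank library than in any K8imTmG library. Tapbp was at 313, 336 and 668 in K8imTmG and 231, 219 and 139 in K8iΔRank libraries (-1.10, adjusted p = 0.106). Tap1 was at 105, 123 and 233 in K8imTmG and 55.5, 80.8 and 88.5 in K8iΔRank libraries (-0.96, adjusted p = 0.14). In all, 5 of the 10 genes had groups without overlap, 2 higher and 3 lower, as did 28.3% of all genes. Psmb8 (-0.29, 95% interval -0.95 to 0.37) and Psmb9 (0.46, 95% interval -0.87 to 1.78) overlapped between genotypes. Genotype and Clec2d side cannot be told apart in this comparison, and median depth was 2135520 reads in K8imTmG and 1112350 in K8iΔRank libraries. The summed basal markers were at 57.0 to 61.8 normalized counts in K8imTmG and 75.0 to 223 in K8iΔRank libraries. The fibroblast markers were at 245 to 957 and 713 to 852, with a mean of 675 for Dcn alone in K8iΔRank libraries. The 4 leukocyte markers were at 86.8 to 180.1 and 141 to 188. The part of these markers in the differences was not tested. Of the other pathway lists only H2-Q4 was called (1.90, adjusted p = 0.0296).

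In parous luminal cells no member was called between genotypes, against 0.0991% of 10090 genes. An unadjusted p below 0.05 was found for 2 members and for 19.9% of all genes, so the members' share is that of the background. DESeq2 called 1 member, Tap2 (-2.81, adjusted p = 0.00445), and edgeR none. The 2 members were Tap2, at a difference of -2.27 (95% interval -3.74 to -0.80, adjusted p = 0.129), and Tapbp, at 0.54 (95% interval 0.03 to 1.04, adjusted p = 0.228). Tap2 was at 72.2, 32.8, 14.1, 214 and 38.5 normalized counts in K8imTmG and 14.5, 16.7, 5.57 and 5.46 in K8iΔRank libraries. The 2 highest of these Tap2 values belong to the 2 Clec2d-high libraries. With the Clec2d-low libraries alone, 3 against 4, Tap2 differed by -1.39 (adjusted p = 0.114), and H2-K1, B2m and Psme1 by 0.06, -0.10 and 0.12. The genotype difference of Psme1 was 0.28 (95% interval -0.17 to 0.72) over all parous luminal libraries, compared with -1.54 in virgin mice.

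Basal cells of K8iΔRank mice keep Rank and live beside luminal cells in which it is targeted. In virgin basal cells no member was called, while 8.99% of 10616 genes were. An unadjusted p below 0.05 was found for 3 members and for 29.3% of all genes, again the background share. DESeq2 and edgeR each called 1 member, Tap2, at -3.74 (adjusted p = 0.00854) and -3.78 (adjusted p = 0.039), where limma gave -1.88 (adjusted p = 0.386). Tap2 was at 79.0, 12.4 and 0 normalized counts in K8imTmG and 0, 4.96, 1.35 and 3.22 in K8iΔRank libraries. The 3 members with a low unadjusted p were Tap1 (0.83, adjusted p = 0.15), Tapbp (0.69, adjusted p = 0.15) and Psme1 (0.55, adjusted p = 0.166). Psme1 was at 118, 78.5 and 125 normalized counts in K8imTmG and 180.0, 130.2, 138 and 175 in K8iΔRank libraries, without overlap, as was the case for 28.2% of all genes. H2-K1 was at 388, 231 and 299 in K8imTmG and 87.7, 286, 282 and 121 in K8iΔRank libraries (-0.80, 95% interval -1.74 to 0.14, adjusted p = 0.232). The 2 low values belong to mice 820 and 825, whose basal libraries were also the lowest of the 30 in H2-D1 (171 and 204), and lay below the 2 other K8iΔRank libraries in B2m, Psmb8, Psmb9 and Psme2. The same 2 libraries were the highest basal libraries in Psme1 and Tapbp. Here too the side and the genotype cannot be told apart, and median depth was 437873 reads in K8imTmG and 1629140 in K8iΔRank libraries. The summed endothelial markers were at 158 to 429 normalized counts in K8imTmG and 191 to 814 in K8iΔRank libraries, and their part was not tested. Outside the 10 genes H2-Q4 (-2.89, adjusted p = 0.00585) and H2-M3 (-1.97, adjusted p = 0.0299) were lower in K8iΔRank basal cells. The chaperone genes Calr (1.19, adjusted p = 0.0458) and Canx (0.86, adjusted p = 0.032) were higher. Of the 11 other core subunits 3 were lower, Psma3 (-0.93, adjusted p = 0.0221), Psma5 (-2.13, adjusted p = 0.031) and Psma1 (-1.20, adjusted p = 0.0345).

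In parous basal cells no member was called, against 0.906% of 10592 genes, and 1 had an unadjusted p below 0.05, as did 22.6% of all genes. DESeq2 and edgeR called none. That gene was Tap1, at 39.8, 61.5, 19.9 and 41.0 normalized counts in K8imTmG and 105, 55.0, 62.1 and 76.0 in K8iΔRank libraries (0.92, 95% interval 0.22 to 1.63, adjusted p = 0.131). All K8imTmG libraries were Clec2d-high here, and with the 2 Clec2d-high K8iΔRank libraries alone Tap1 differed by 0.76 (adjusted p = 0.634). The other 9 genes had adjusted p of 0.28 or more. Psma5 was the only gene of the other pathway lists that was called (-1.62, adjusted p = 0.0436).

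**Figure D4:**
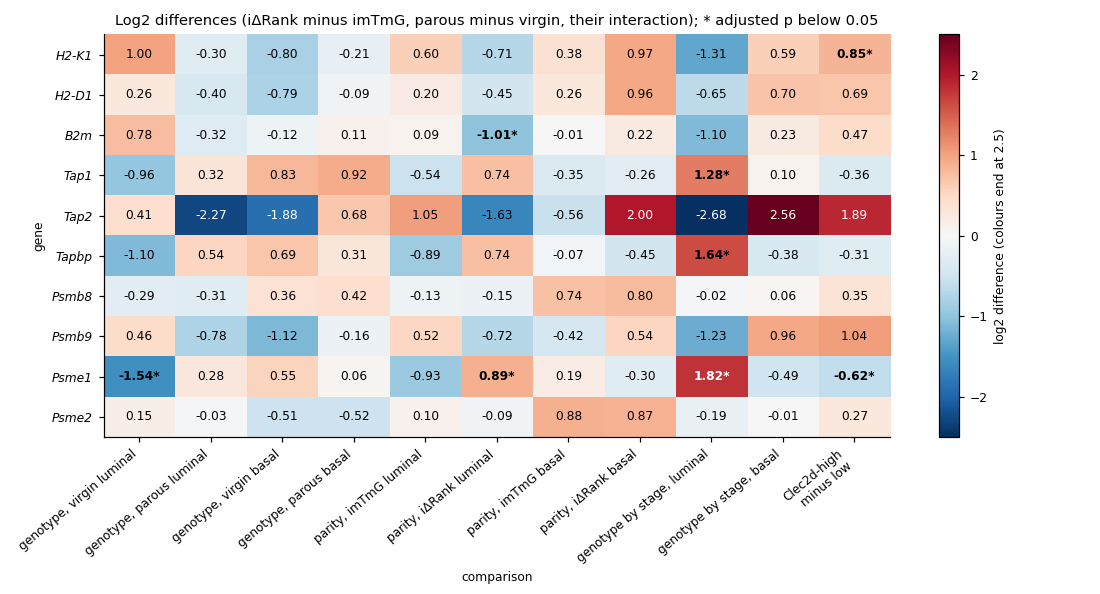
Log2 difference of each gene (rows) in each comparison (columns), as K8iΔRank minus K8imTmG, parous minus virgin, their interaction, and Clec2d-high minus Clec2d-low. Stars mark adjusted p below 0.05, and in luminal cells the signs of Tap1, Tapbp and Psme1 are opposite to those of H2-K1, H2-D1 and B2m in each genotype, parity and interaction column.

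Parity was compared within each genotype, on the same groups as above, so these comparisons are not independent of those between genotypes. In luminal K8imTmG cells no member was called, against 2.2% of 10279 genes, and 2 members had an unadjusted p below 0.05, as did 21.7% of all genes. DESeq2 called 2 members and edgeR none. Psme1 was at 387, 356 and 446 normalized counts in virgin and 188, 250.3, 233, 163 and 212 in parous libraries, without overlap. The difference was -0.93 (95% interval -1.39 to -0.46, adjusted p = 0.0515), close to the threshold. Over the alternatives with all libraries its adjusted p lay between 0.000842 and 0.0817, and with the Clec2d-low libraries alone Psme1 was called lower, at -0.77 (adjusted p = 0.0303). Tapbp was at 313, 336 and 668 in virgin and 234, 272, 241, 157 and 222 in parous libraries (-0.89, adjusted p = 0.125), also without overlap. Over all genes 16.9% did not overlap. H2-Q7 was the only called gene of the other pathway lists (1.67, adjusted p = 0.0397). The summed luminal markers were at 7634 to 11013 normalized counts in virgin and 4039 to 6503 in parous libraries, without overlap, and of these Krt19 was called lower in parous cells (-1.35, adjusted p = 0.0397). The summed fibroblast markers were at 245 to 957 in virgin and 98.4 to 321 in parous libraries, where Dcn alone had a mean of 128. The part of either list in the Psme1 and Tapbp differences was not tested.

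In luminal K8iΔRank cells 2 members were called between parous and virgin mice, 1 higher and 1 lower, while 16% of 10249 genes were called. Psme1 was higher in parous cells, at 141, 131 and 133 normalized counts in virgin and 197, 323, 210.1 and 296 in parous libraries (0.89, standard error 0.21, adjusted p = 0.0205). B2m was at 3548, 3355 and 2054 in virgin and 1462, 1291, 1741 and 1330 in parous libraries and was lower by the test (-1.01, standard error 0.23, adjusted p = 0.0179). Neither gene overlapped between the groups. Quantile normalization moved the B2m difference to -0.34 (adjusted p = 0.244), and in a fit with all 15 luminal libraries its adjusted p was 0.0575. Without mouse 821 neither was called (adjusted p = 0.0664 for B2m and 0.0524 for Psme1), and Psme1 was not called without mouse 794 (0.0541) or 830 (0.0637). Another 3 members did not overlap and did not pass the test, H2-K1 (-0.71, adjusted p = 0.0615), Tap1 (0.74, adjusted p = 0.054) and Tapbp (0.74, adjusted p = 0.0746). For H2-K1 the lowest virgin and the highest parous library, at 603.158 and 603.111 normalized counts, differed by less than 1 read. Groups without overlap were found for 29.7% of all genes. Virgin libraries of this comparison were all Clec2d-high and parous ones all Clec2d-low, so parity and side cannot be told apart. The summed fibroblast markers were at 713 to 852 normalized counts in virgin and 173 to 416 in parous libraries. Most of the virgin fibroblast sum was Dcn, at a mean of 675. The basal markers were at 75.0 to 223 and 38.8 to 69.6. Both sums were without overlap, and their part in the differences was not tested. Among other genes H2-Q4 (-2.01, adjusted p = 0.00178) and Pdia3 (-0.71, adjusted p = 0.026) were lower in parous cells, and the NF-kB subunit gene Rela (1.35, adjusted p = 0.00644) and the interferon receptor gene Ifnar2 (0.71, adjusted p = 0.0358) were higher. Of the 11 other core subunits 4 were lower, with Psma1 at -1.16 (adjusted p = 0.00392), Psma5 at -1.68 (adjusted p = 0.00539) and Psma2 at -0.90 (adjusted p = 0.0144), and Psma4 was higher (0.68, adjusted p = 0.026).

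In basal cells no gene at all was called for parity by limma, 0% of 10538 genes in K8imTmG and 0% of 10525 genes in K8iΔRank mice. DESeq2 called 44 and 91 genes there and edgeR 8 and 0, none of them members. An unadjusted p below 0.05 was found for 9.20% of all genes in K8imTmG and 9.84% in K8iΔRank mice. In K8imTmG 1 member had an unadjusted p below 0.05, Psme2 (0.88, 95% interval 0.16 to 1.60, adjusted p = 0.459). In K8iΔRank 2 members had one, H2-K1 (0.97, 95% interval 0.06 to 1.88, adjusted p = 0.496) and Tap2 (2.0, 95% interval 0.46 to 3.55, adjusted p = 0.477). With the Clec2d-low libraries alone, 4 virgin and 2 parous ones, the H2-K1 difference was 0.58 (adjusted p = 0.994).

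Whether the effect of genotype differed between virgin and parous mice was tested as an interaction. In luminal cells 3 members passed, Psme1 (1.82, standard error 0.29, adjusted p = 0.00765), Tapbp (1.64, standard error 0.42, adjusted p = 0.0235) and Tap1 (1.28, standard error 0.38, adjusted p = 0.0406), while 12.9% of 10262 genes were called. In each of the 3, the K8iΔRank minus K8imTmG difference was below 0 in virgin and above 0 in parous cells, at -1.54 and 0.28 for Psme1, -1.10 and 0.54 for Tapbp and -0.96 and 0.32 for Tap1. H2-K1 (-1.31, 95% interval -2.30 to -0.31, adjusted p = 0.0728) and B2m (-1.10, 95% interval -1.89 to -0.30, adjusted p = 0.062) had interactions of the opposite sign that did not pass. Psmb8 had an interaction of -0.02 (95% interval -0.78 to 0.73). With the Clec2d side as a covariate none of the 3 passed, at 1.26 (adjusted p = 0.125) for Psme1, 1.15 (adjusted p = 0.331) for Tapbp and 0.72 (adjusted p = 0.524) for Tap1, and 5 genes of the whole table did. The side term of that fit rests on the 5 parous luminal K8imTmG libraries, the only luminal group with both sides (3 low, 2 high). In the other luminal groups side and group coincide, so the fit cannot separate the side from the interaction. Without mouse 538, or without mouse 794, only Psme1 was called, and Tap1 lost its call without any 1 of 10 mice and Tapbp without 538, 794 or 825. H2-Q4 (-3.02, adjusted p = 0.0242) and H2-Q7 (-1.76, adjusted p = 0.0366) were among the called genes of the other lists. Of the other listed genes, the PA28 gamma gene Psme3 (-1.23, adjusted p = 0.0339), Jak1 (1.10, adjusted p = 0.0296) and Rela (1.59, adjusted p = 0.0339) were called too, as were Pdia3 (-0.89, adjusted p = 0.0447), Psma1 (-1.61), Psma5 (-2.57) and Psma4 (1.15). In basal cells 0% of 10607 genes were called by limma, no member had an unadjusted p below 0.05, and DESeq2 and edgeR called 18 and 0 genes, none of them members.

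The 2 sides of the Clec2d split were compared over the 30 libraries with the group in the fit, so that the difference rests on the groups that hold both sides. It is a description of libraries, not of a treatment. H2-K1 was higher in Clec2d-high libraries (0.85, standard error 0.30, adjusted p = 0.0473) and Psme1 lower (-0.62, standard error 0.17, adjusted p = 0.0107), while 18.9% of 11133 genes were called. Without any 1 of 11 mice H2-K1 was not called. Psmb9 (1.04, adjusted p = 0.105), Tap2 (1.89, adjusted p = 0.199), H2-D1 (0.69, adjusted p = 0.192) and B2m (0.47, adjusted p = 0.145) were above 0, and Tap1 (-0.36, adjusted p = 0.405) and Tapbp (-0.31, adjusted p = 0.401) below. The relation of the members was visible in the 5 parous luminal K8imTmG mice. H2-K1 was at 813 and 604 normalized counts in the 2 Clec2d-high libraries and at 294, 385 and 457 in the 3 Clec2d-low ones. Psme1 was at 188 and 163 in the high and at 250.3, 233 and 212 in the low libraries. Both genes separated the sides in that group, and the share of all genes that did so was not computed. The fit that called them rests partly on the same libraries, so this is no further support. Of the other lists H2-Q4 (1.88, adjusted p = 1.78e-05) and H2-M3 (1.78, adjusted p = 0.00285) were higher in Clec2d-high libraries. Canx (-0.76, adjusted p = 0.000978), Thop1 (-1.87, adjusted p = 0.00254) and Calr (-0.99, adjusted p = 0.00838) were lower, as were Ifnar2 (-0.54), Rela (-0.87) and Jak1 (-0.53). Tapbpl (1.03, adjusted p = 0.00759) and the assembly factor gene Pomp (0.65, adjusted p = 0.0133) were higher. Of the 11 other core subunits 6 were higher and 2 lower, led by Psma4 (-0.91), Psma3 (0.77), Psma1 (0.90) and Psmb1 (0.70).

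The members were also related to each other across the 15 libraries of each lineage, 1 per mouse, on the log2 scale. Over 45 pairs a lineage and 2 coefficients, 180 relations were tested by permutation and adjusted together. Values were not centred on the group means, and libraries were permuted across the groups. The permutation p therefore also carries differences between groups, and not only variation between mice of a group. In luminal libraries 25 pairs had a Pearson r above 0 and 20 below, and 22 passed an adjusted p of 0.05 by r, 15 above and 7 below 0. In basal libraries the counts were the same, 25 above and 20 below 0, and 22 passed, 16 above and 6 below 0. How many pairs of other genes would pass was not computed, so these counts do not set the members apart. H2-D1 and Psmb9 had the highest Pearson r in luminal libraries, with r = 0.88 and rho = 0.84 (permutation adjusted p = 0.00072 and 0.0018), and r = 0.81 without the 2 libraries farthest from the median of H2-D1. By rho, Psmb8 and Psmb9 (0.90), Tapbp and Psme1 (0.89) and B2m and Tap1 (-0.90) were among the pairs farther from 0 there. H2-K1 and H2-D1 had the highest Pearson r in basal libraries, with r = 0.95 and rho = 0.90 (permutation adjusted p = 0.00072 and 0.00072), and r = 0.86 without the 2 farthest. Among the negative relations in luminal libraries, H2-K1 and Tap1 had r = -0.83 and rho = -0.85 (permutation adjusted p = 0.0018 and 0.0018), r = -0.75 without the 2 farthest and r = -0.78 in the 10 Clec2d-low libraries. H2-K1 and Tapbp had r = -0.78 and rho = -0.79 there (permutation adjusted p = 0.00379 and 0.00507), r = -0.72 without the 2 farthest and r = -0.71 in the Clec2d-low libraries. The 5 Clec2d-high luminal libraries were too few for a value of their own.

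Sorted by these signs, a grouping made after the values were seen and therefore described without a test, H2-K1, H2-D1, B2m, Psmb8, Psmb9 and Psme2 were above 0 with each other in all 15 pairs of both lineages. The median r of these pairs was 0.64 in luminal and 0.71 in basal libraries. Tap1, Tapbp and Psme1 were above 0 with each other in all 3 pairs, at 0.81 to 0.85 in luminal and 0.47 to 0.79 in basal libraries. In the 9 Clec2d-high basal libraries alone, 12 of the 15 pairs (lowest r = -0.30) and 2 of the 3 pairs were above 0. Between the 2 sets 17 of 18 pairs were below 0 in each lineage. In the 10 Clec2d-low luminal libraries 15 of the 18 were below 0. In basal libraries the sides differed, since all 18 were below 0 in the 6 Clec2d-low libraries (median r = -0.77) and 17 of 18 above 0 in the 9 Clec2d-high libraries (median r = 0.40). The negative relations between the sets in basal cells rest on few libraries. H2-K1 and Tapbp had r = -0.67 and rho = -0.29 over 15 basal libraries (permutation adjusted p = 0.0234 and 0.363), and r = 0.04 without the 2 farthest from the median of H2-K1, the virgin K8iΔRank mice 820 and 825. With each pair's 2 farthest libraries left out, 8 of the 18 pairs were below 0 in basal and 14 in luminal libraries. The pairs share libraries and depth, and the 15 libraries span 4 conditions.

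**Figure D5:**
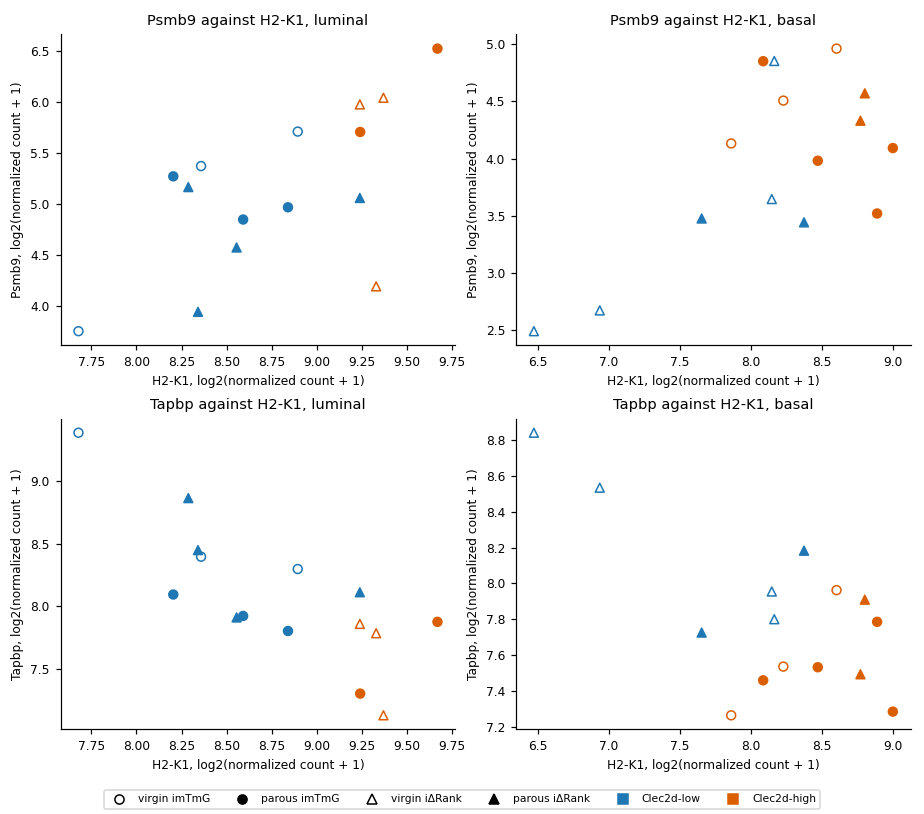
Psmb9 (top) and Tapbp (bottom) against H2-K1 in the 15 luminal (left) and 15 basal libraries (right), as log2(normalized count + 1). Circles are K8imTmG and triangles K8iΔRank libraries, filled where parous and coloured by Clec2d side, and Tapbp falls as H2-K1 rises in luminal libraries (r = -0.78), whereas the 2 basal libraries at the upper left carry the basal relation of r = -0.67.

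The mean of the 10 genes was taken on the log2 scale, with each gene centred on the 8 group means and divided by its SD. Over 30 libraries its correlations with its own members H2-K1, H2-D1, B2m, Psmb8, Psmb9 and Psme2 were 0.69 to 0.91. With Tap2 the correlation was 0.54, and with Tap1, Tapbp and Psme1 0.04, -0.04 and -0.12. Among 5160 genes outside all lists with a mean of at least 50 normalized counts, the 5 most like this mean were Eif4g3 (r = 0.82), Vcl (0.81), Fam91a1 (0.79), Lats1 (0.79) and Mtfr1 (0.77). These values are descriptions, and libraries of 1 mouse or of like depth share more than these genes. Of the listed relatives H2-Q6 had r = 0.75 and H2-Q7 0.65, against that percentile of 0.635. Irf1 lay below it, at 0.51. Psmb10 had r = -0.35, Psmb5 -0.00395, Psmb6 -0.35 and Psmb7 0.67. Psmb8 and Psmb9 are themselves part of this mean and Psmb10 is not, so their r cannot be set against each other.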

How the data were processed

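Single 86-base QuantSeq reads of sorted cells (CD45 and CD31 excluded, GFP+ luminal cells) were processed by the authors. They trimmed with BBDuk, collapsed molecular identifiers with UMI-tools, and mapped with Bowtie2 to GRCm39 before counting over Gencode vM26 genes. Whether counting used strand is not given in the sources used here. The deposited signal values are counts divided by DESeq2 size factors, for genes that the authors kept when above 10 in at least 25% of samples. Reads were recovered as whole multiples of the smallest step of a library (100% of values within 0.02 reads). Intervals cover counting error and the spread between these mice only.

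Groups follow the labels. Libraries with over 20 normalized counts of Clec2d were called Clec2d-high. The values, as log2(normalized count + 1), were compared by limma 3.58.1 with its trend option, on genes above 10 in at least 25% of the libraries fitted, with Benjamini-Hochberg adjustment over all genes and calls at 0.05. Each pair of groups had its own fit, interactions used the 4 groups of a lineage, and lineage and Clec2d side all 8 groups. Alternatives were a pseudocount of 4, no filter, quantile normalization, array quality weights, 1 fit per lineage, DESeq2 1.42.0 and edgeR 4.0.16 on recovered reads, 1 Clec2d side, the mouse as a block, and each mouse left out. Relations used 100000 two-sided permutations of libraries, with a smallest p of 1e-05. No library pair of a group was a duplicate (chi-square per degree of freedom at least 2.67 in 43 pairs).

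Luminal and basal libraries whose labels carry the same number were taken to come from the same mouse. Deviations of the 13 such pairs from their group means had r of -0.309 to 0.43 (median 0.0785). In 0 of the 13 mice was its own basal library the best match of the luminal one. The pairing therefore rests on the labels alone. Members, lists and tests were chosen with earlier results of these data known. All 10 members are named, and of the other lists up to 4 called genes per comparison with the lowest adjusted p, beside Psmb10, Psmb5, Psmb6, Psmb7, Nlrc5 and Irf1. A further gene of that rule is not reported here. On simulated data for the virgin luminal genotype comparison, limma recovered 147 of 200 genes changed by 2 on the log2 scale, with 4.55% of its calls false, and DESeq2 174 with 15.9% false. Promoter sequences are from RefSeq (GRCm38.p6), and bases, genes and transcripts from GRCm39 with GENCODE vM39. R was version 4.3.3. In Python 3.11.15 the packages were scipy 1.17.1, matplotlib 3.10.9, pandas 2.3.3 and numpy 2.4.6.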

Additional observations from a re-analysis of the deposited data

Results flagged for a closer look

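Of 50 combinations of a member and a group of 4 or 5 libraries, 1 held a library that stood apart. Psmb8 in parous luminal K8imTmG mouse 494 was at 184.8 normalized counts, while the other 4 libraries of the group lay between 138 and 147. Chance alone would set apart about 1 in 20 groups. Mouse 494 also had the highest H2-K1, H2-D1, B2m, Psmb9 and Psme2 of its group, and its luminal library was Clec2d-high with 943438 reads. In luminal cells the effect of the genotype differed between virgin and parous mice for 3 members by the limma interaction, at 1.82 for Psme1, 1.64 for Tapbp and 1.28 for Tap1. The Clec2d side of the libraries changes with both factors, and its part in these differences was not tested beyond the fit with the side as a covariate, in which they were 1.26, 1.15 and 0.72 and did not pass. The side term of that fit rests on the parous luminal K8imTmG group alone, so the fit cannot separate the side from the interaction.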

How the results depend on the processing

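No member changed sign while called. Of 899 values of single members under the settings that leave out no mouse, 816 kept direction and side of the threshold, 34 gained and 9 lost a call, and 40 uncalled ones changed sign. With array quality weights 5 members were called for genotype in virgin luminal cells, 1 in parous luminal and 2 in parous basal cells, and 2 for parity in K8imTmG luminal cells. With DESeq2 the counts were 2 for genotype in virgin luminal, 1 in parous luminal and 1 in virgin basal cells, 2 for parity in K8imTmG luminal cells and 6 for the luminal interaction, where H2-K1, B2m and Tap2 were gained. With edgeR they were 1 for genotype in virgin basal cells and 4 for the Clec2d side, and Tap2 gained the luminal interaction. B2m gained it with array quality weights, and Tap1 lost it after quantile normalization (adjusted p = 0.0527). For lineage Tapbp and Psme2 gained a call after quantile normalization and with array quality weights, and Psme2 with DESeq2. For parity in K8imTmG luminal cells 1 member was called with a pseudocount of 4, without a filter, in 1 fit per lineage and with Clec2d-low libraries only. For parity in K8iΔRank luminal cells 1 was called after quantile normalization and in 1 fit per lineage. The luminal interaction had 0 calls with the side as a covariate, and the Clec2d side 1 after quantile normalization. The cause of these shifts was not tested. With 1 mouse left out, calls ranged from 0 to 2 for genotype in virgin luminal cells, 0 to 1 and 0 to 4 for parity in K8imTmG and K8iΔRank luminal cells, 1 to 4 for the luminal interaction, 7 to 8 for lineage and 1 to 2 for the Clec2d side, and were 0 in the others. The highest of these were reached without mouse 531 (virgin luminal genotype), 494 (K8imTmG parity) and 822 (K8iΔRank parity). With the mouse as a replicate block 5 members (fixed term) or 7 (random term, correlation 0.0624) were called for lineage, and the block changed no other call. The shallow libraries limit Tap2 most.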
